A study of Homo sapiens with 9 samples.

Results

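The 10 genes described here are early markers of mesoderm and of the heart and vessel lineages that arise from it: HAND1, HAND2, KDR, PDGFRA, TBX20, MEOX1, TCF15, GATA5, TEK and NKX2-5. They were chosen by gene symbol. Each was represented by 1 probe set, so that they made up 10 of 29096 probe sets that were not controls. The cells were H9, an established human embryonic stem cell line, in 3 groups of 3 samples all labelled day 3: cells given no siRNA (untreated), cells that received a non-silencing siRNA, and cells that received an siRNA against TCF7L1. Each sample was hybridized to 1 array, and every array reports a PLIER signal, a linear intensity that combines the probes of a probe set. All samples are 1 cell line, nothing in the labels says that replicates were separate cultures, and p-values therefore measure only the spread between these samples. The study asked which genes depend on TCF7L1, a DNA-binding partner of beta-catenin.

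In the embryo, mesoderm forms from cells that leave the primitive streak, and Wnt, Nodal and BMP signals act together to specify it. Its paraxial part gives rise to somites, and its lateral part to heart, vessels and blood. Receptor tyrosine kinases such as KDR and PDGFRA appear on early mesoderm, where their joint presence marks cardiac progenitors, and transcription factors of the HAND, TBX, NKX and GATA families then build the cardiac programme. TCF7L1 is known mostly as a repressor at Wnt-responsive genes in pluripotent cells, and Wnt activity drives pluripotent cells toward mesoderm. The deposited gene ontology terms group HAND1, HAND2, TBX20 and NKX2-5 (4 of the 10) under heart looping.

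Promoter sequences from RefSeq on build GRCh38 were matched for 6 of the 10 genes (8 promoters, each from 250 bases before to 50 bases after a gene start), with none matched for MEOX1, TCF15, GATA5 and NKX2-5. They were searched on both strands for 4 spellings of the TCF/LEF recognition motif, which start with CTTTG and end with AA, with AT, with TA or with TT. The spellings differ only at the end, so no site counts under 2 of them. One match each was found in a promoter of HAND1, KDR and TEK (3 of 8 promoters), and a motif occurs in 13.8% of 35116 promoters of this length. The 3 promoters are printed because they are the ones in which the motif of the family to which TCF7L1 belongs can be read beside the measured signals of the gene. Each reads 5′ to 3′ on the strand of its gene, and capitals mark the match, which here is the reverse complement of a searched spelling.
HAND1, chr5:154478178-154478477, minus strand: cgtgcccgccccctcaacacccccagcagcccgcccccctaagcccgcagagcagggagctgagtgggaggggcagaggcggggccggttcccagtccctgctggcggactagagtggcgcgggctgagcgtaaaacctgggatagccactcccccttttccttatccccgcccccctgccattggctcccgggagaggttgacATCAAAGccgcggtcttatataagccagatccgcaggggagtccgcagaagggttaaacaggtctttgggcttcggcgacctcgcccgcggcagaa
KDR, chr4:55125546-55125845, minus strand: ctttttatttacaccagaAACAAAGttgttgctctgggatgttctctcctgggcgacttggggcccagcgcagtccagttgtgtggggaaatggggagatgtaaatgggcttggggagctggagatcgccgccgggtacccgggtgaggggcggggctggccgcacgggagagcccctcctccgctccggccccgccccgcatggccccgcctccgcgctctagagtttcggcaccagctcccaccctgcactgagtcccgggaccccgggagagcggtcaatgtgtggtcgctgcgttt
TEK, chr9:27109200-27109499, plus strand: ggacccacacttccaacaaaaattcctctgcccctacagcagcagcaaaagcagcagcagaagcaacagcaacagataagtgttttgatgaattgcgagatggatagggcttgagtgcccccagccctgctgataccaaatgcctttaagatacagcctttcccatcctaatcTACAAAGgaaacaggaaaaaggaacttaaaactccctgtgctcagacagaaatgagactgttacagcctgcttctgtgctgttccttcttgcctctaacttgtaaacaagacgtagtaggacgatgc
The match begins 46 bases before the start of HAND1, 232 before that of KDR and 77 before that of the second of 2 annotated TEK starts. A match is a description of letters and not evidence of binding. None was found in these windows for HAND2, TBX20, the 2 PDGFRA promoters or the first TEK promoter.

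TCF7L1 itself, the target of the siRNA, had a mean signal of 362 ± 23.2 where it was targeted, beside 1661 ± 184 in untreated cells and 1679 ± 46.6 with the non-silencing siRNA (SD, n = 3 each). To describe the cells, the signals of 19 pluripotency markers were summed on each array. No other cell type was measured for comparison, so the sum does not by itself show identity. The sum ran from 40462 to 42344 in untreated samples, from 40082 to 41200.4 for non-silencing siRNA and from 39745 to 43117 for TCF7L1 siRNA. It is carried by bright markers such as LIN28A (means 5624, 5578 and 5602 in the same order of groups). Dim ones such as DPPA2 (184, 124 and 114) hardly enter it. Pairs of arrays correlated as closely between groups (r = 0.977 to 0.996) as within them (0.979 to 0.993). The arrays differed in spread. Non-silencing replicate 3 and TCF7L1 replicate 2 had the narrowest interquartile range of log2 signals (2.35 each), and the other 7 arrays ran from 2.49 to 2.67. Differences from no siRNA without these 2 arrays are given after the tests.

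Signals of different probe sets depend on their probes, so each gene was placed within its own array and against 2904 probe sets that the annotation marks as negative controls. These controls hold a median of 4 probes, fewer than the 28 of a tested probe set, and their 95th percentile lay between 1443 and 1966, so the comparison is coarse. KDR alone stood above over 90% of the negative controls on all 9 arrays (92.0% to 94.8%). TCF15 (88.2% to 90.1%), NKX2-5 (87.3% to 88.5%) and GATA5 (85.2% to 87.9%) came next, followed by TEK (75.4% to 83.4%) and TBX20 (74.9% to 79.0%). HAND2, PDGFRA, MEOX1 and HAND1 lay between 48.7% and 69.8%, within the bulk of the negative controls, and below the array median on all 9 arrays. For these 4 genes a transcript was not detectable above that background, and none of the 10 stood above 95% of the negative controls on all 9 arrays. That bar is high, and the share of all probe sets above it was not computed. By median signal, 11 of the 19 pluripotency markers passed it. TCF7L1 stood between 94.2% and 96.0% on the arrays without its siRNA. Missing the bar therefore does not mean absence. In RNA from whole cultures, a low signal could come from a few cells or from little RNA in many, and these cannot be told apart.

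**Figure D1:**
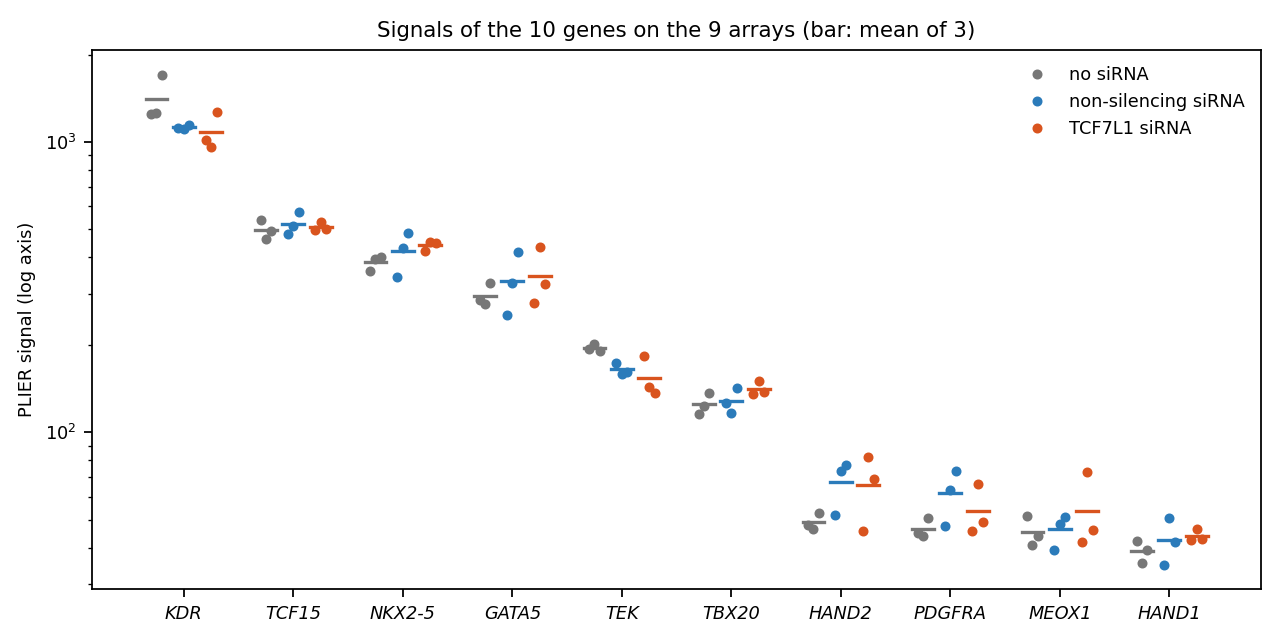
PLIER signal (log axis) of each gene on each of the 9 arrays, coloured by group, with replicates 1 to 3 from left to right and a bar at the group mean. KDR lies between 963 and 1705, and HAND1, MEOX1, PDGFRA and HAND2 have no value above 82.2, with the groups intermixed for most genes.

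None of the 10 genes passed the threshold (adjusted p under 0.05 by limma over 22784 tested probe sets) in any of the 3 comparisons, and all 10 were among the tested probe sets. Against the non-silencing siRNA, 0.0263% of tested probe sets passed, against no siRNA 0.0527%, and between the 2 controls 0%. An unadjusted p under 0.05 was found for no gene of the 10 between the controls (2.41% of tested probe sets, or 548) and for 2 of the 10, KDR and TEK, between TCF7L1 siRNA and no siRNA (7.26%). Between TCF7L1 siRNA and the non-silencing siRNA the log2 differences ran from -0.15 for PDGFRA to 0.14 for MEOX1, 5 above 0 and 5 below, with a median of 0.007 beside -0.005 over all tested probe sets. The 95% intervals reached at most from -0.47 to 0.48. In that comparison no gene of the 10 had an unadjusted p under 0.05 (2.58% of tested probe sets did), and none had groups that did not overlap (4.99% did).

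**Figure D2:**
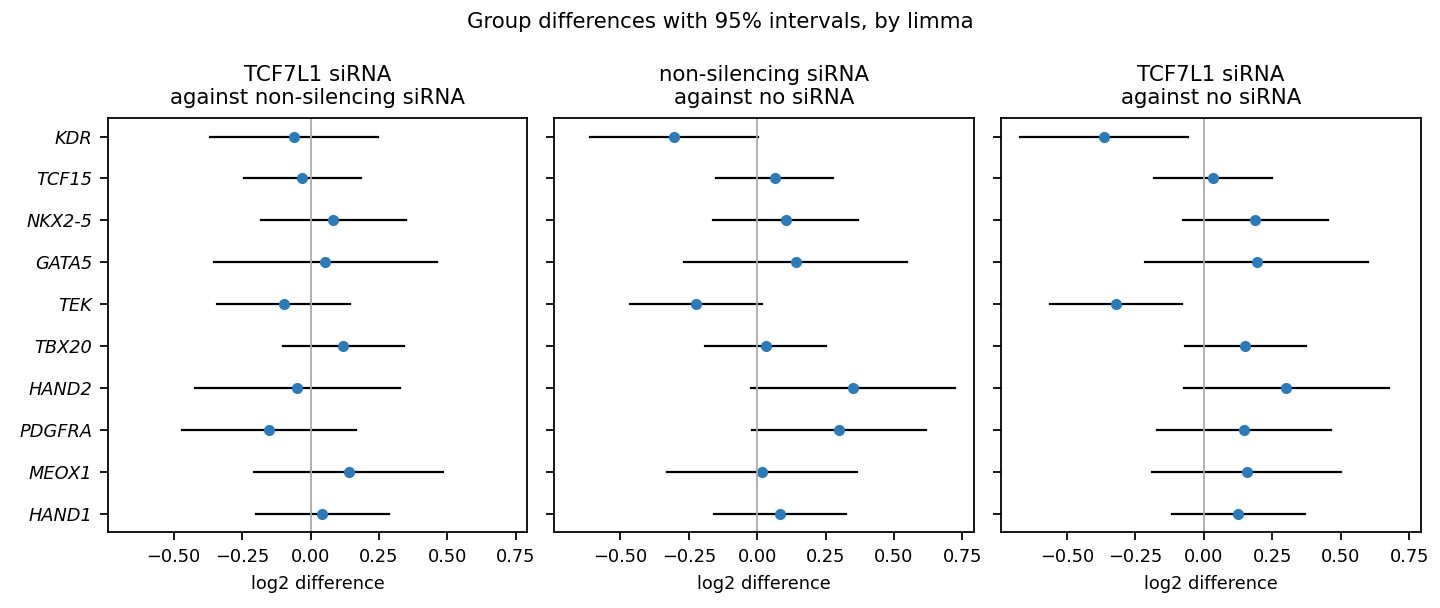
Log2 difference (point) and its 95% interval (line) from limma for each gene in the 3 comparisons. All 10 intervals include 0 for TCF7L1 siRNA against non-silencing siRNA, and only those of KDR and TEK exclude 0 for TCF7L1 siRNA against no siRNA, before adjustment.

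The receptors are described first. KDR encodes the main signalling receptor for vascular endothelial growth factor A on endothelial cells and their mesodermal precursors, and its transcript is also known in undifferentiated human embryonic stem cells. Signals of KDR were 1249, 1258 and 1705 without siRNA, 1116, 1105 and 1144 after non-silencing siRNA, and 1017, 963 and 1269 after TCF7L1 siRNA, in replicate order. The untreated samples held 3 of the 4 highest values, the non-silencing samples lay close together, and TCF7L1 replicate 3 overlapped the untreated range. Group means were 1404 ± 261, 1122 ± 20.2 and 1083 ± 164 (SD, n = 3 each). The log2 difference between the siRNAs was -0.06 (SE 0.14, 95% interval -0.37 to 0.25, adjusted p = 1 by limma). Against no siRNA it was -0.30 in non-silencing samples (SE 0.14, adjusted p = 0.927) and -0.36 for TCF7L1 siRNA (SE 0.14, 95% interval -0.67 to -0.06, unadjusted p = 0.0239, adjusted p = 0.662). These comparisons share the untreated samples, of which replicate 3 was far above the rest. Without it the differences were -0.16 (adjusted p = 0.899) and -0.22 (adjusted p = 0.717).

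Genes were also ranked by likeness to KDR, whose signals hold 1 far higher array, untreated replicate 3. By Pearson correlation of log2 signals over the 9 arrays, the 3 genes most like KDR were the olfactory receptor gene OR52A1 (0.98), the potassium channel gene KCNK5 (0.97) and the matrix gene TNC, tenascin C (0.95), out of 17928 compared, of which 15 exceeded 0.9. All 3 had their highest signal on that same array, 386 for OR52A1, 674 for KCNK5 and 112 for TNC. The points share arrays, and the likeness is a description. Genes picked for likeness to KDR tend to peak where KDR does, so the shared peak is not a separate result. Among the other 9 genes described here the closest to KDR was TEK (0.40).

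TEK encodes the angiopoietin receptor TIE2 of endothelial and some blood-forming cells (chromosome 9, 27109236 to 27230173, plus strand; this and the positions that follow are of the probe set on GRCh37). Signals of TEK were 193, 201 and 190.3 without siRNA, 174, 159 and 161 after non-silencing siRNA, and 183, 143 and 136 after TCF7L1 siRNA. All 3 untreated samples lay above all 6 samples given an siRNA, while the 2 siRNA groups overlapped. The means were 195 ± 5.75, 165 ± 7.84 and 154 ± 25.3 (SD, n = 3 each). The log2 difference was -0.10 between the siRNAs (SE 0.11, 95% interval -0.34 to 0.14, adjusted p = 1), -0.22 for the non-silencing siRNA against no siRNA (SE 0.11, 95% interval -0.46 to 0.02, adjusted p = 0.927) and -0.32 for TCF7L1 siRNA against no siRNA (SE 0.11, 95% interval -0.56 to -0.08, unadjusted p = 0.0138, adjusted p = 0.639). It had the smallest p of the 10 genes in that last comparison, where it stood at rank 491 of all tested probe sets. With fitted array weights it passed (-0.45, adjusted p = 0.00873). That fit stopped before it reached its tolerance and called 2186 probe sets instead of 12, with TCF7L1 replicate 3 weighted at 24.7 and non-silencing replicate 2 at 0.000158.

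PDGFRA encodes the alpha receptor for platelet-derived growth factor, which is found on paraxial and cardiac mesoderm and on primitive endoderm. Its signals were 45.0, 44.0 and 50.7 without siRNA, 47.7, 63.5 and 73.7 after non-silencing siRNA, and 45.8, 66.5 and 49.0 after TCF7L1 siRNA. Within each siRNA group the highest value fell on the array of narrowest spread, and all groups overlapped. The means were 46.6 ± 3.64, 61.6 ± 13.1 and 53.8 ± 11.2, and the log2 differences were -0.15 (SE 0.14), 0.30 (SE 0.14) and 0.15 (SE 0.14) in the same order of comparisons as for TEK (adjusted p = 1, 0.927 and 0.748). PDGFRA and KDR are neighbours on chromosome 4. On build GRCh37, PDGFRA spans 55095442 to 55164414 on the plus strand and KDR 55944644 to 55991762 on the minus strand, with 780230 bases between them. KIT, the stem cell factor receptor gene, lies in that gap (55524075 to 55606881) and had means of 404, 383 and 361 in the 3 groups, with a log2 difference of -0.08 between the siRNAs (SE 0.11, adjusted p = 1).

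The cardiac transcription factors fell into a brighter set and a dim pair. NKX2-5 encodes the homeodomain factor of cardiac progenitors (chromosome 5, 172659112 to 172662262, minus strand). Its signals were 361, 395 and 402 without siRNA, 343, 431 and 484 after non-silencing siRNA, and 422, 453 and 448 after TCF7L1 siRNA. The TCF7L1 samples all exceeded the untreated ones but lay inside the range of the non-silencing samples. Means were 386 ± 22.0, 419.5 ± 71.2 and 441 ± 16.96, with log2 differences of 0.08 between the siRNAs (SE 0.12, 95% interval -0.18 to 0.35, adjusted p = 1) and 0.19 for TCF7L1 siRNA against no siRNA (SE 0.12, adjusted p = 0.677).

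GATA5 encodes a zinc finger factor of endoderm and cardiac mesoderm (chromosome 20, 61038553 to 61051026, minus strand). Signals were 285, 276 and 326 without siRNA, 254, 327 and 419 after non-silencing siRNA, and 278, 433 and 325 after TCF7L1 siRNA. The 2 siRNA groups each covered almost the same broad range, and their coefficients of variation were 24.8% and 23.1% against 8.98% without siRNA. The log2 difference between them was 0.05 (SE 0.18, 95% interval -0.35 to 0.46), the largest SE of the 10 genes.

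TBX20 encodes a T-box factor of the developing heart (chromosome 7, 35242042 to 35293758, minus strand). Its signals were 116, 123 and 137 without siRNA, 126, 117 and 142 after non-silencing siRNA, and 135, 149.98 and 137 after TCF7L1 siRNA. Means were 125 ± 10.5, 128 ± 12.9 and 141 ± 8.08, the highest with TCF7L1 siRNA, but the groups overlapped and the log2 difference between the siRNAs was 0.12 (SE 0.10, 95% interval -0.10 to 0.34, adjusted p = 1). It kept its sign in all 20 alternatives of that comparison, between 0.03 and 0.19.

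HAND1 and HAND2 encode related basic helix-loop-helix factors of lateral mesoderm and heart, and HAND1 is also known in trophoblast and amnion. HAND1 lies on chromosome 5 (153854532 to 153857824) and HAND2 on chromosome 4 (174447647 to 174451378), both on the minus strand. HAND1 had signals of 42.3, 35.4 and 39.3 without siRNA, 35.0, 50.7 and 41.9 after non-silencing siRNA, and 42.6, 46.5 and 42.8 after TCF7L1 siRNA. All 9 values lay between 35.0 and 50.7, where the negative controls had medians of 32.2 to 41.8, and the groups of the 2 siRNAs overlapped. The log2 difference between the siRNAs was 0.04 (SE 0.11, 95% interval -0.20 to 0.29). HAND2 had 47.9, 46.5 and 52.9 without siRNA, 52.0, 73.7 and 77.3 after non-silencing siRNA, and 45.7, 82.2 and 69.1 after TCF7L1 siRNA. Each siRNA group held 1 array at the untreated level and 2 arrays above it. The log2 differences of HAND2 were -0.05 between the siRNAs (SE 0.17), 0.35 for the non-silencing siRNA against no siRNA (SE 0.17, 95% interval -0.02 to 0.72, adjusted p = 0.927) and 0.30 for TCF7L1 siRNA against no siRNA (SE 0.17, adjusted p = 0.666). With fitted array weights the last passed (0.37, adjusted p = 0.0403), in the same fit that called 2186 probe sets.

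Of the paraxial genes, TCF15 was bright and steady and MEOX1 dim. TCF15 encodes paraxis, a basic helix-loop-helix factor of the somites (chromosome 20, 584441 to 590953, minus strand). Its signals were 537, 465 and 494 without siRNA, 482, 513 and 572 after non-silencing siRNA, and 496, 531 and 503 after TCF7L1 siRNA. The TCF7L1 values lay inside both control ranges, with a log2 difference of -0.03 from non-silencing samples (SE 0.10, 95% interval -0.24 to 0.18, adjusted p = 1), the narrowest interval of the 10 genes. MEOX1, a homeobox gene of somites (chromosome 17, 41717757 to 41739260, minus strand), had 51.7, 41.0 and 44.0 without siRNA, 39.2, 48.5 and 51.3 after non-silencing siRNA, and 41.9, 73.2 and 46.0 after TCF7L1 siRNA. Its mean with TCF7L1 siRNA (53.7 ± 17.04) rested on replicate 2, and the log2 difference between the siRNAs changed from 0.14 (SE 0.16) to -0.05 when that array was left out.

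In each comparison against no siRNA, 8 of the 10 genes lay above 0 and 2 below (KDR and TEK). Of the 8, HAND1, HAND2, PDGFRA and MEOX1 (4 genes) are those with signals in the bulk of the negative controls. The median of the 10 log2 difference was 0.07 for the non-silencing siRNA, where 46.3% of all tested probe sets lay above 0, and 0.15 for TCF7L1 siRNA, where 45.8% did. Both comparisons use the same untreated samples, so their signs are not independent. Without the 2 arrays of narrowest spread, 3 of the 10 genes lay above 0 for the non-silencing siRNA and 7 for TCF7L1 siRNA. Signals did not overlap for KDR and TEK between the controls (2 of 10, both lower, beside 6.86% of all tested probe sets in either direction and 4.39% lower). Between TCF7L1 siRNA and no siRNA they did not overlap for TEK, HAND1 and NKX2-5 (3 of 10, beside 14.4%), of which TEK was lower (7.93% of all tested) and the other two higher (6.43%).

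Signals of these genes on the 2 arrays of narrowest spread were set beside the rest. Whether signals followed spread over all 9 arrays was not tested. TBX20, for example, ranked 8 of 9 (117) on non-silencing replicate 2, the next narrowest array (2.49). GATA5, HAND2, NKX2-5, PDGFRA and TBX20 had their 2 highest signals on the 2 narrowest arrays, 1 from each siRNA group. The same held for 18.4% of all tested probe sets, for 31.5% of the dimmer ones (mean signal under the tested median) and for 5.19% of the others. Of the 5 named genes, HAND2 and PDGFRA lay below the array median on all 9 arrays, and GATA5, NKX2-5 and TBX20 above it. That median is over all probe sets that were not controls, and not over the tested ones. No gene of the 10 had its 2 lowest signals on the 2 narrowest arrays. Without these 2 arrays the difference between TCF7L1 siRNA and no siRNA was 0.16 for HAND2, 0.02 for PDGFRA, 0.03 for GATA5, -0.04 for MEOX1, 0.17 for NKX2-5, 0.11 for TBX20, 0.10 for HAND1 and 0.0049 for TCF15. It was -0.28 for TEK and -0.29 for KDR, and MEOX1 was the 1 gene whose sign turned. Between the controls, leaving them out turned the sign of 5 genes, GATA5 (-0.03), MEOX1 (-0.04), NKX2-5 (-0.0019), TBX20 (-0.04) and TCF15 (-0.0013), while HAND2 (0.26), PDGFRA (0.19), HAND1 (0.09), KDR (-0.32) and TEK (-0.21) kept theirs. Between the siRNAs it turned the sign of KDR and TCF15. No gene of the 10 passed in any of the 3. With array spread as a covariate, 4 genes changed sign between TCF7L1 siRNA and no siRNA, GATA5 (-0.03), PDGFRA (-0.01), MEOX1 (-0.0059) and TCF15 (-0.03), and 3 between the controls, GATA5 (-0.05), MEOX1 (-0.12) and TBX20 (-0.0093).

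**Figure D3:**
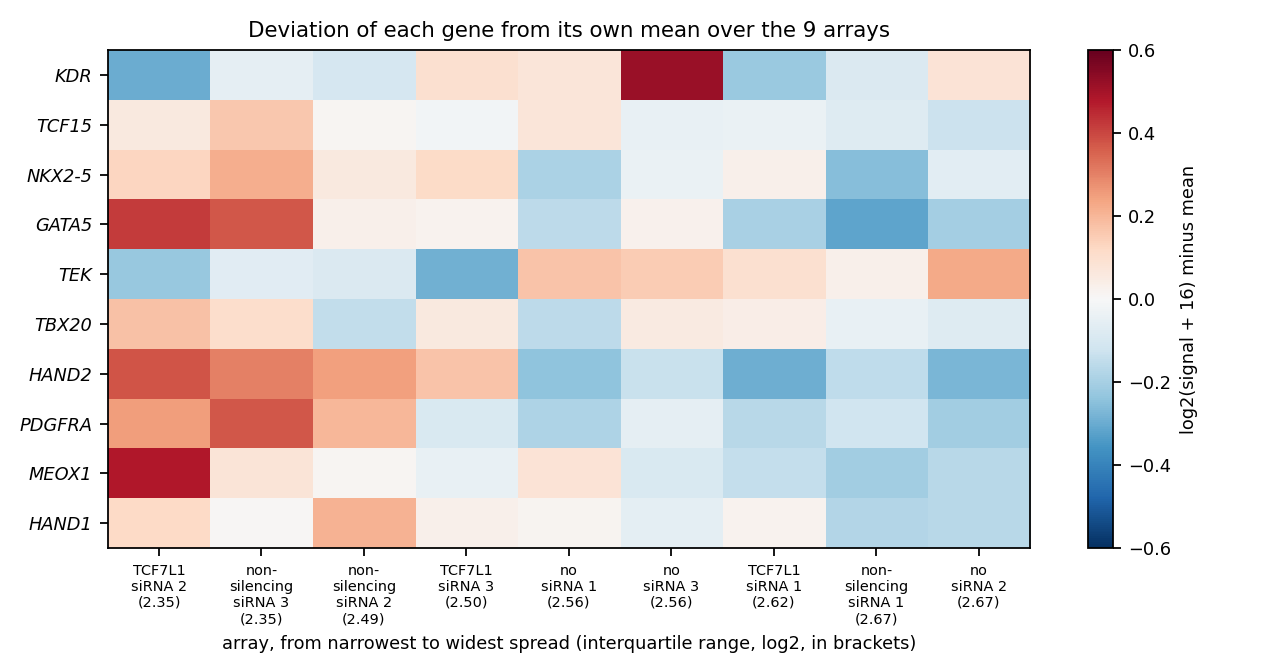
Deviation of log2(signal + 16) of each gene from its own mean over the 9 arrays (colour), with arrays ordered from the narrowest to the widest interquartile range. HAND2, PDGFRA and GATA5 are above their means on the 2 narrowest arrays at the left, and the highest cell of KDR is untreated replicate 3.

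Other genes of the same lineages were examined by list. No tested gene of the 5 mesoderm and cardiovascular lists passed in any comparison by limma. At an unadjusted p under 0.05 each list held between 0 and 2 genes between the 2 siRNAs, 0 or 1 between the controls and 0 to 4 for TCF7L1 siRNA against no siRNA. The shares of all tested probe sets were 2.58%, 2.41% and 7.26%. Highest between the siRNAs were the paraxial mesoderm and somite genes (2 of 19). Against no siRNA, TCF7L1 siRNA had 4 of 18 cardiac muscle genes and 3 of 21 lateral plate and cardiac mesoderm regulators. Between the siRNAs 47.8% of all tested probe sets lay above 0. Of 21 tested lateral plate and cardiac mesoderm regulators 12 lay above 0 between the siRNAs (median 0.03), 18 between the controls (median 0.13) and 18 for TCF7L1 siRNA against no siRNA (median 0.20). No list was recounted without the 2 arrays of narrowest spread, 1 from each siRNA group, so the part of array spread in such counts was not tested. Of the 25 lateral plate and cardiac mesoderm regulators, 12 lay below the array median on all 9 arrays. The smallest p values in that list were those of BMP4, the ligand that induces lateral mesoderm, with means of 177 and 273 (log2 difference 0.58, SE 0.11, adjusted p = 0.228), and of MYOCD, the smooth and cardiac muscle coactivator myocardin (-0.28, SE 0.14, adjusted p = 1). BMP4 did not overlap between TCF7L1 siRNA and either control. Its mean without siRNA was 199, and the log2 difference of TCF7L1 siRNA from that was 0.43 (adjusted p = 0.478). MYOCD had means of 64.2, 50.8 and 39.1 in the 3 groups. For TCF7L1 siRNA against no siRNA it was lower without overlap (-0.53, adjusted p = 0.539 by limma). Groups did not overlap for 4.99% of all tested probe sets between the siRNAs and for 14.4% between TCF7L1 siRNA and no siRNA.

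Of 19 paraxial mesoderm and somite genes 11 lay above 0 between the siRNAs (median 0.04), 15 between the controls (0.08) and 16 for TCF7L1 siRNA against no siRNA (0.16). In the first of these the smallest p values were those of the Notch pathway genes DLL3 (-0.37, SE 0.15) and LFNG (-0.24, SE 0.10). Of 24 vascular and haemato-endothelial genes 10, 16 and 14 lay above 0 in the same order (medians -0.03, 0.02 and 0.07). Smallest by p between the siRNAs were the semaphorin and growth factor co-receptor gene NRP2 (0.21) and the haematopoietic cofactor gene LMO2 (-0.13). Of 18 cardiac muscle genes 9, 8 and 10 lay above 0 (medians 0.0022, -0.03 and 0.04), with the smallest p between the siRNAs for the myosin light chain genes MYL2 (0.21) and MYL7 (0.22), both dim with means of at most 63.0. Of 13 ligands, co-receptors and paralogues of the 3 receptors 5, 5 and 4 lay above 0 (medians -0.04, -0.05 and -0.08), with PDGFB at -0.19 and FLT3 at 0.13 first by p between the siRNAs. VEGFA, a ligand of KDR, had means of 463, 448 and 437 in the 3 groups and a log2 difference of -0.04 between the siRNAs (SE 0.11). Each gene named in this list and the 3 before it had adjusted p = 1 by limma between the siRNAs.

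**Figure D4:**
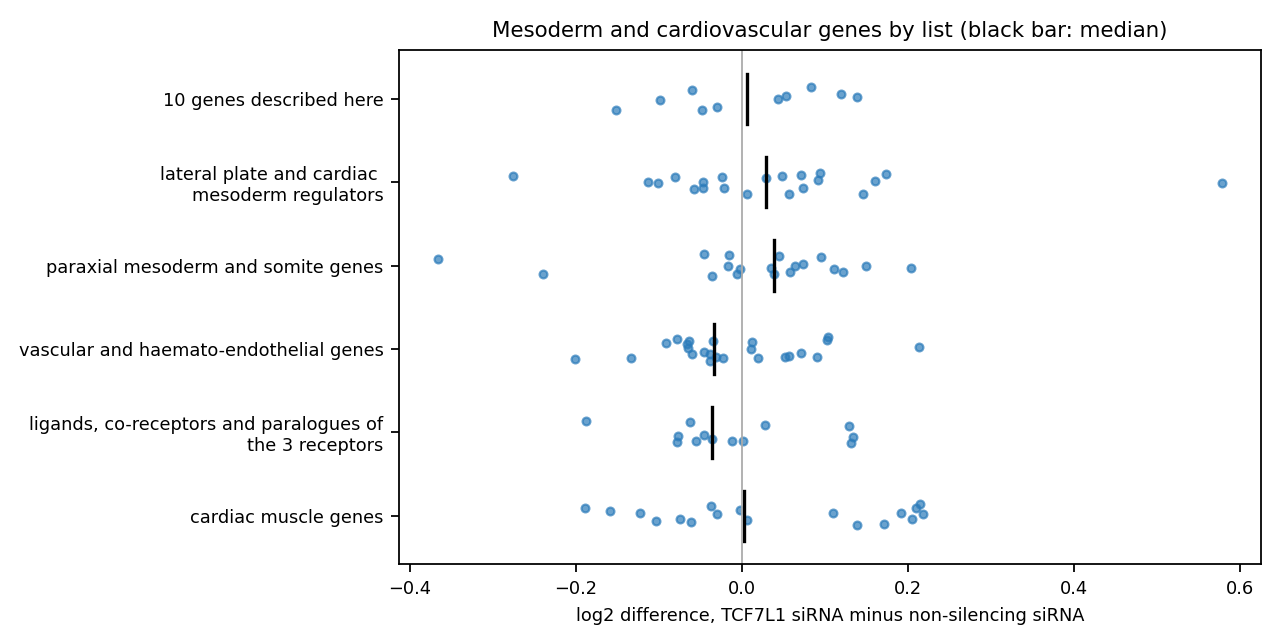
Log2 difference between TCF7L1 siRNA and non-silencing siRNA for the 10 genes and for the tested genes of 5 lists (points, spread vertically for legibility), with a black bar at each median. The medians lie between -0.04 and 0.04, and the point at 0.58 is BMP4.

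Markers of other cell types that could share these genes were examined beside them. The summed signal of 18 trophoblast and amnion markers, which matter for HAND1, ran from 2797 to 3042 in untreated samples, from 2719 to 3005 for non-silencing siRNA and from 2519.9 to 2799 for TCF7L1 siRNA. This sum and those that follow weigh bright genes most, here CDX2 (means 720, 754 and 742 in the 3 groups). A change of 1 gene such as GABRP can move a sum, which does not describe the marker set as a whole. Of the 16 tested genes of the trophoblast and amnion list 6 lay above 0 between the siRNAs (median -0.04) and none passed. Between the siRNAs 2 of the 16 had an unadjusted p under 0.05, beside 2.58% of all tested probe sets. GABRP, a GABA receptor subunit gene, had means of 429, 288 and 196 in the 3 groups, with log2 differences of -0.52 between the siRNAs and -1.10 against no siRNA (adjusted p = 1 and 0.203 by limma). The keratin gene KRT7 had means of 188, 192 and 161. The 15 endoderm markers, which matter for PDGFRA and GATA5, summed to 1936 to 2024, 1919 to 2210.01 and 2024 to 2239. FOXA2 (0.35) and COL4A1 (-0.18) had the smallest p of the 14 tested between the siRNAs, of which 12 lay above 0 (median 0.03) and none passed.

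The 14 fibroblast markers summed to 5467 to 5938 in untreated samples, 5325 to 5673 for non-silencing siRNA and 4762 to 5318 for TCF7L1 siRNA. Of the 11 tested 4 lay above 0 between the siRNAs (median -0.10), and COL1A1 (-0.46, adjusted p = 0.296) and COL1A2 (-0.23) had the smallest p. Neural crest markers, which matter for HAND2, summed to 4069 to 4262, 3929 to 4118 and 3982 to 4149, with 5 of 12 above 0 between the siRNAs (median -0.03) and the smallest p for ETS1 (0.35) and SNAI2 (-0.43). Haematopoietic markers, which matter for TEK, summed to 1299.9 to 1416, 1307 to 1605 and 1235 to 1562, with 6 of 12 above 0 between the siRNAs (median 0.0013) and the smallest p for SPN (-0.22) and AIF1 (-0.65, adjusted p = 0.155). AIF1, a gene of macrophages, fell against no siRNA (-0.79, SE 0.11, adjusted p = 0.0321) and was the only tested marker of these lists that passed in any comparison. Among the pluripotency markers PRDM14 (0.24) and NANOG (0.18), which has near-identical copies elsewhere in the genome, had the smallest p between the siRNAs, where 10 of the 19 lay above 0 (median 0.0065) and none passed. For the non-silencing and TCF7L1 siRNAs against no siRNA, 12 and 12 of 14 endoderm markers lay above 0. The counts were 12 and 10 of 16 trophoblast and amnion, 7 and 8 of 12 haematopoietic, and 6 and 6 of 12 neural crest markers. They were 4 and 3 of 11 fibroblast markers and 6 and 9 of 19 pluripotency markers. The part of these markers in the values of the 10 genes was not tested.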

How the data were processed

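Transcript levels of 9 H9 samples were measured on 9 whole-transcript arrays. The authors deposited a linear intensity signal per probe set and array. Per the submitters' processing notes, PLIER 2.0 in Affymetrix Expression Console 1.1.1 produced it. How background and normalization were handled is not given in the sources used. The 2 deposited tables held equal values (largest difference 0). With 3 arrays per group, the 95% interval of a log2 difference had a median half-width of 0.26.

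Of 33297 probe sets, 4201 controls were left out. Signals were turned into log2 after adding 16, so that differences of low signals are understated. Testing required a signal above the 25th percentile of the array on at least 3 arrays (22784 of 29096). Groups were compared with limma 3.58.1 in R 4.3.3 with 1 mean per group over all 9 arrays, two-sided, with Benjamini-Hochberg adjustment over all tested probe sets. For a single gene, 3 samples against 3 cannot give an exact permutation p below 0.1. Data of this size were simulated for the comparison of the 2 siRNAs (22784 probe sets, 5 draws). Changes were put into log2(signal + 16), so a fold here is of the signal plus 16 and stands for a larger fold of a low signal. The fit recovered 53.4% of probe sets changed 1.5-fold, 87.8% of those changed 2-fold and 97.9% of those changed 3-fold. It also made 44 false calls. Each probe set was simulated on its own, without the deviations that many probe sets of a measured array share. These percentages may therefore be too high for the measured data.

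The members and the 11 gene lists were chosen with earlier results of these data known. Named besides the 10 genes were TCF7L1, list genes that passed, the 2 of smallest p per list between the 2 siRNAs, and the 3 genes most like the brightest of the 10. A list gene with several probe sets was represented by the brightest. Positions come from the deposited annotation, and 97.4% of 5957 probe sets with a stated GRCh37 position overlapped it. Alternatives were other offsets (1 and 64), quantile normalization, other filters, a fit of 2 groups, a replicate block, array weights, an intensity trend and leaving out each array. The 2 alternatives on array spread were added after the data were seen.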

Additional observations from a re-analysis of the deposited data

How the results depend on the processing

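Over 20 alternatives, 588 values were computed for the 30 pairs of gene and comparison, and 2 passed the threshold, those of TEK and HAND2 with array weights in TCF7L1 siRNA against no siRNA. That setting called 2 of the 10 genes and 2186 probe sets there, against 0 and 12. In every other setting, leaving out any 1 array included (lowest 0, highest 0), none of the 10 passed. The filter at the array median left HAND1, HAND2, MEOX1 and PDGFRA untested. The sign held in every alternative for 13 of the 30 pairs.

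The number of probe sets past the threshold between the 2 siRNAs was 6, with 4 to 6 when 1 array was left out, 11 with the replicate block and 25 with array spread as a covariate. For TCF7L1 siRNA against no siRNA it was 12, with 3 to 14 when 1 array was left out, 20 with the replicate block, 22 with the covariate and 5 without the 2 narrowest arrays. The causes were not tested. Whether replicate numbers pair the samples is not known, since nothing in the labels says so. Of 9 same-number correlations of deviations from the group means, 5 exceeded 0.1 (-0.257 to 0.68). Correlations between different numbers ran from -0.753 to 0.715, so these values cannot decide it. The block was kept as an alternative.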
